A study of Mus musculus with 2 samples.

Results

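The genes described here encode the enzymes that cut the extracellular matrix and their inhibitors: 18 matrix metalloproteinases (MMPs), 18 ADAMTS proteases, 5 ADAMTS-like proteins and 3 tissue inhibitors of metalloproteinases (TIMPs). Each of the 44 genes matched a RefSeq gene, and a differentially methylated region was counted for a gene when it overlapped the gene span or the 2 kb on either side. This gave 94 of the 28141 regions in the authors' table. The genes were listed by name and family, with earlier results of these data known, and the list does not hold every gene of these families. No region was counted for more than 1 member.

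Whole-genome bisulfite sequencing, which reads methylated cytosines as unconverted bases, had been run on 1 library of CD137+ cells and 1 library of PDGFRα+ (CD140+) cells. CD137 is a receptor used to sort beige adipocyte precursors, and PDGFRα is a growth factor receptor of mesenchymal progenitors. Both libraries came from C57BL/6 mouse adipose progenitors that were isolated on magnetic columns from subcutaneous or visceral fat. The depot of each library and the number of animals are not stated in the labels. The cells of both groups were differentiated with an adipogenic cocktail and given 1 µM dexamethasone, a synthetic glucocorticoid, so the groups differ in the sorted marker and share the treatment. With 1 library per group there is no replicate spread, no difference below was tested, and no p-value is given. Each region has a methylation level per library, from 0 (no cytosine read as methylated) to 1 (all of them), and its read depth is unknown. Where levels are printed without the name of the library, those of PDGFRα+ come first.

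MMPs are zinc-dependent proteases, made as inactive precursors, that cleave collagens, gelatin, elastin and other matrix proteins. ADAMTS enzymes are secreted zinc proteases with thrombospondin repeats that process procollagens and large proteoglycans, while ADAMTS-like proteins carry the repeats without a protease domain. TIMPs bind the active site of these enzymes. In fat, the matrix around progenitors is remodelled as they fill with lipid, and the membrane-anchored collagenase encoded by Mmp14 is known for its part in white fat development. Methylation of a gene start often goes with low transcription, whereas methylation within genes has no fixed relation to it, and RNA was not measured here.

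Most regions at these genes were less methylated in the PDGFRα+ library. Of the 94 regions, 82 (87.2%, 95% Wilson interval 79.0 to 92.5) were lower and 12 were higher in PDGFRα+, while 77.7% of all listed regions were lower and 22.3% higher. The lower regions had a median level of 0.217 in PDGFRα+ and 0.820 in CD137+. Over all lower regions of the table the medians were 0.261 and 0.820, so the medians of the CD137+ library were alike and that of PDGFRα+ was smaller at the members. The 12 higher regions had median levels of 0.889 and 0.345, close to the 0.879 and 0.344 of all higher regions. Differences were also wide: 37.2% of the member regions were lower in PDGFRα+ by at least 0.6, against 19.2% of all listed regions. The median difference, PDGFRα+ minus CD137+, was -0.56 over the member regions and -0.49 over the whole table. The interval covers counting error only, regions of 1 gene are not independent, and 30 of the 94 regions belong to Adamtsl1. Without Adamtsl1, 87.5% of 64 regions were lower and 43.8% were lower by at least 0.6.

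**Figure D1:**
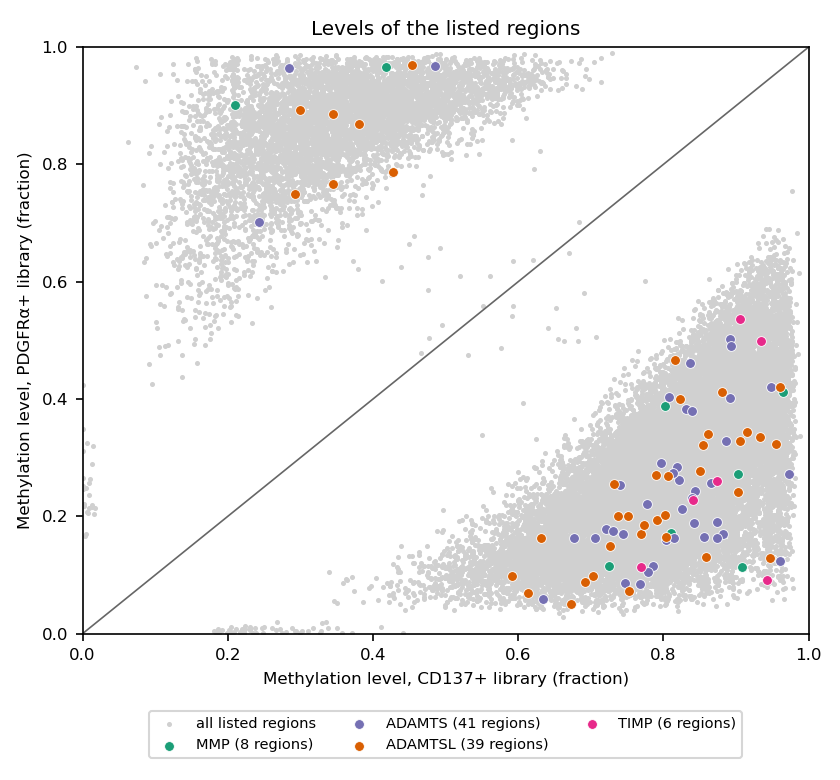
Methylation level of each listed region in the CD137+ library (x axis, fraction) and in the PDGFRα+ library (y axis, fraction), with all 28141 regions in grey and the 94 member regions coloured by family. The diagonal marks equal levels, and 82 coloured points lie below it and 12 above it.

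The families differed in how many of their genes held a region. A region was present at 6 of 18 MMP genes, 13 of 18 ADAMTS genes, 4 of 5 ADAMTS-like genes and 2 of 3 TIMP genes. In all 25 of 44 members (56.8%) held one, against 29.5% of 21883 protein-coding genes. In 18 of the 25 every region was lower, in 3 (Mmp2, Mmp28 and Adamtsl5) every region was higher, and 4 (Adamts9, Adamts17, Adamtsl1 and Adamtsl3) held both kinds. Among the 6453 protein-coding genes with a region, the corresponding shares were 58.5%, 18.5% and 23.0%.

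**Figure D2:**
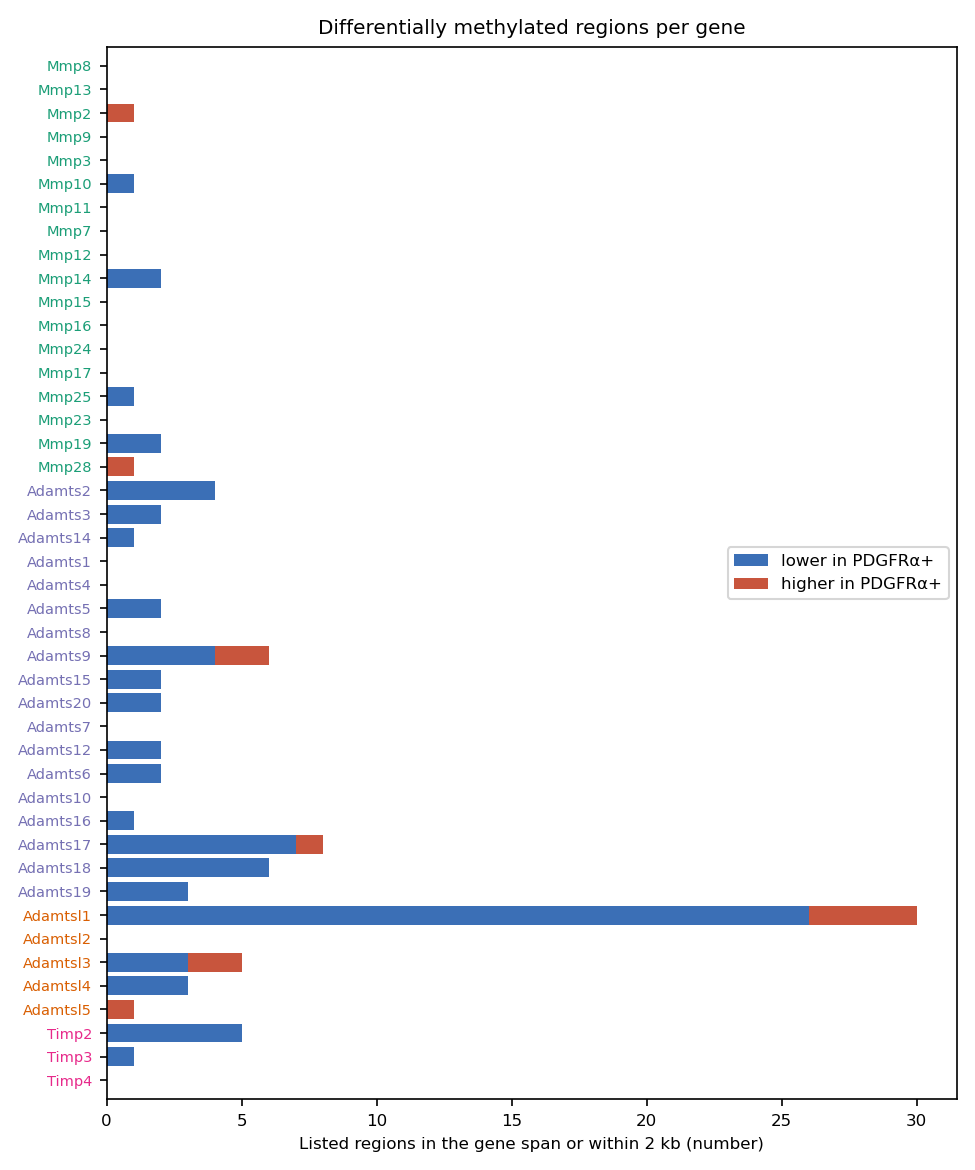
Number of listed regions per gene (x axis) for the 44 members (y axis, names coloured by family), with regions lower in PDGFRα+ in blue and higher ones in red. Adamtsl1 carries 30 regions, the next gene, Adamts17, carries 8, and 19 genes carry none.

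Longer genes more often hold a region, so the members were set beside protein-coding genes of like span. The MMP genes are short, with a median span of 13.2 kb, and the ADAMTS genes long, with a median of 133 kb. Under 20 kb, 6 of 17 members held a region, against 12.5% of protein-coding genes. From 20 to 100 kb it was 7 of 14, against 39.3%. At 100 kb or more it was 12 of 13, against 81.4%, and Mmp16, a membrane-anchored MMP gene of 264 kb, was the exception. Per 100 kb of gene window the members held 2.16 regions and all protein-coding genes 1.41. By family the density was 1.32 for MMPs, 1.73 for ADAMTS, 3.08 for ADAMTS-like and 4.87 for TIMP genes. Without Adamtsl1 it was 1.86 over the members and 2.60 over the ADAMTS-like genes. The MMP value thus lay near that of all genes, but Mmp16, which held no region, fills a large part of the 605.7 kb of MMP windows. The MMP density without Mmp16 was not computed. Among genes under 20 kb, the members of all families together held 4.05 regions per 100 kb, against 1.40 for protein-coding genes. The members were also denser in both longer span classes. The TIMP value rests on 6 regions.

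**Figure D3:**
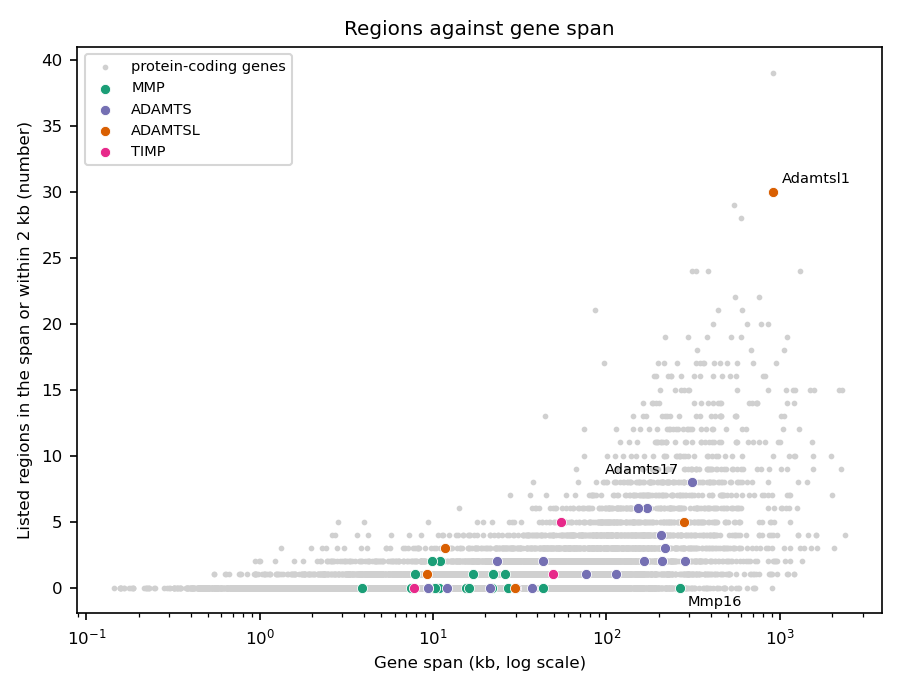
Number of listed regions per gene (y axis) against gene span (x axis, kb, log scale) for protein-coding genes (grey) and the members (coloured by family). Mmp16 lies at 0 regions among genes of its span, and Adamtsl1 lies near the top of the plot with 30.

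Regions near gene starts could be counted only where the start was known. The start and strand were known for 29 members from RefSeq promoter windows (GRCm38.p6). Of the 51 regions at these genes, 4 came within 2 kb of a start. This share was not computed over all listed regions, so it cannot be called low or high. Regions at the other members, such as those 183 bases outside Mmp19 and 644 bases outside Adamtsl1, could not be placed. Adamtsl4, which encodes a fibrillin-binding matrix protein, had 2 of the 4, both upstream. Mmp14 had 1 upstream and Adamts14, a procollagen N-proteinase gene, had 1 just inside the gene. All 4 were lower in PDGFRα+. The 250 bases before the start of these 3 genes are shown because the regions lie next to them, with each CG, the dinucleotide whose cytosine can be methylated, in capitals.
Adamtsl4, chr3:95687918-95688167, minus strand: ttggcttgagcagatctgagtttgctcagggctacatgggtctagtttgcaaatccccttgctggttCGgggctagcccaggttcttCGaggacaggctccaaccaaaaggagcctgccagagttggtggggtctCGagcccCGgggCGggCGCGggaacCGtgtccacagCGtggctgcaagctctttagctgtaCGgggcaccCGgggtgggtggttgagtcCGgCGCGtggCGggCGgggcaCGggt
Mmp14, chr14:54431348-54431597, plus strand: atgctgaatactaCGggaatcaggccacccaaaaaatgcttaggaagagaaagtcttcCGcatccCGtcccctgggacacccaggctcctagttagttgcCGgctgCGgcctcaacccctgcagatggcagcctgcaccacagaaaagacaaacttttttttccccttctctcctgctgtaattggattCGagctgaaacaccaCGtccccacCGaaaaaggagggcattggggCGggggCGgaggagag
Adamts14, chr10:61273420-61273669, minus strand: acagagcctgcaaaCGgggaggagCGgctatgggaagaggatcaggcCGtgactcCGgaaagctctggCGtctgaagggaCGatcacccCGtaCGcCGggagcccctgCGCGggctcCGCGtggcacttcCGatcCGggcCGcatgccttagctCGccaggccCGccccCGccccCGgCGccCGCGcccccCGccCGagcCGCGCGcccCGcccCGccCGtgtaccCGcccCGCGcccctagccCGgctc

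The 3 windows differ in CG content, with 10 CG in Mmp14, 17 in Adamtsl4 and 35 in Adamts14, against a median of 10 over 21262 such windows of protein-coding genes. At least as many CG were found in 50.1%, 31.5% and 3.79% of those windows. None of the 32 member windows itself overlapped a listed region, and levels inside them are not known. In Adamtsl4 the nearer region began 30 bases beyond the printed window, at chr3:95688197-95688410, and had methylation levels of 0.0732 in PDGFRα+ cells and 0.752 in CD137+ cells. The farther one, chr3:95689725-95689817, had levels of 0.129 and 0.947, a difference of -0.82 over 4 cytosines. In Adamts14 the region chr10:61272061-61272680 had levels of 0.115 and 0.786 over 20 cytosines, and its centre lay 1049 bases into the gene.

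Among the MMP genes, the 3 regions at membrane-bound members, from 2 of 7 such genes, were lower in PDGFRα+. The secreted members held both directions. Of all listed regions 77.7% were lower, and so few regions cannot set membrane-bound and secreted members apart. Mmp14 encodes a membrane-anchored collagenase that, with Timp2, also activates the Mmp2 precursor. It had 2 regions, 1 on each side of the gene. The upstream region, chr14:54430389-54430748, had methylation levels of 0.116 in PDGFRα+ cells and 0.725 in CD137+ cells over 14 cytosines, and it lies also within 2 kb of Mrpl52. The region beyond the end, chr14:54443578-54444259, had levels of 0.114 and 0.909 over 21 cytosines, and its difference of -0.79 stood at rank 178 of the 28141 regions from the most negative. Both Mmp14 regions were thus mostly unmethylated in PDGFRα+ cells and mostly methylated in CD137+ cells.

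Mmp2, encoding the gelatinase that Mmp14 activates, went the other way. Its only region, chr8:92853210-92854262, is 1053 bases long with 31 cytosines, runs over the upper end of the gene, and lies also within 2 kb of Lpcat2 and Gm45472. The levels were 0.902 in PDGFRα+ cells and 0.210 in CD137+ cells, and the difference of 0.69 was the largest positive one among the members. A further region 2660 bases beyond the gene, outside the 2 kb limit, was also higher in PDGFRα+ (0.885 and 0.312).

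Mmp28, which encodes a secreted MMP with few known matrix substrates, held the other higher MMP region. This region, chr11:83459812-83460154, had methylation levels of 0.966 in PDGFRα+ cells and 0.418 in CD137+ cells over 13 cytosines, with its centre 3057 bases after the gene start. Mmp19, another secreted MMP, had a lower region on each side of the gene. The first, 183 bases outside the gene at chr10:128790511-128790727, had methylation levels of 0.273 in PDGFRα+ cells and 0.902 in CD137+ cells. The second, chr10:128802819-128803119, had levels of 0.172 and 0.810 and overlapped the 2 kb window by only 9 bases. Mmp25, a lipid-anchored MMP of leukocytes, had a lower region 278 bases past its end, with levels of 0.387 and 0.802 over 6 cytosines. No region was listed at Mmp15, Mmp16, Mmp17, Mmp23 or Mmp24, the other membrane-bound MMPs.

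**Figure D4:**
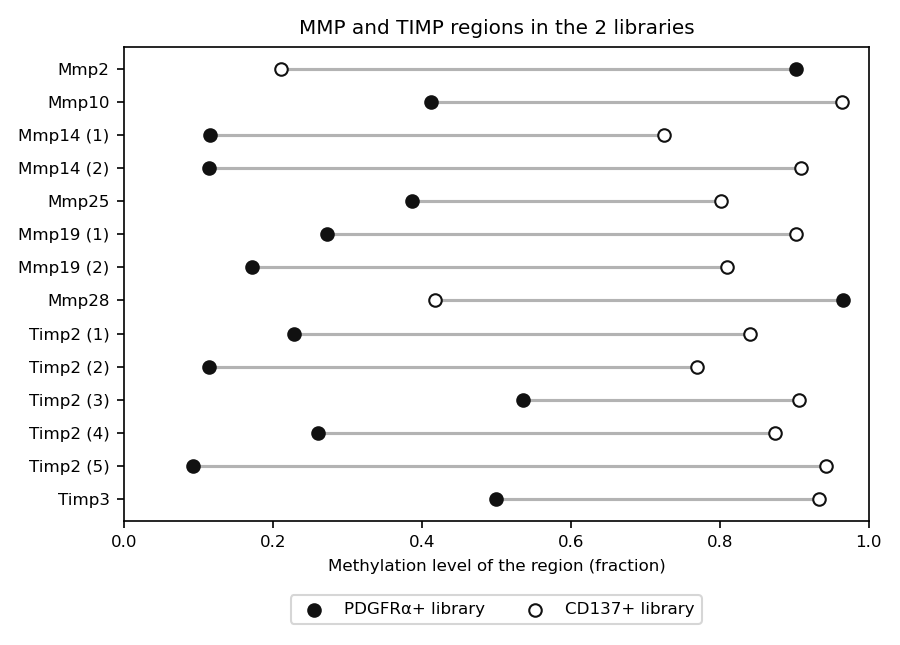
Methylation level (x axis, fraction) of each MMP and TIMP region (y axis; regions of 1 gene are numbered along the chromosome) in the PDGFRα+ library (filled) and the CD137+ library (open), with no error bars because each group is 1 library. In Mmp2 and Mmp28 the filled point lies to the right, and in the other 12 regions it lies to the left.

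The direction of the MMP regions differed between those that overlap a gene span and those wholly in the flanks. Of the 8 MMP regions, 6 were lower, but 5 lay wholly in the flanks and all 5 of these were lower. Only 3 MMP regions overlapped a gene span, those of Mmp2, Mmp28 and Mmp10, and 1 of the 3 was lower. The higher Mmp2 region runs past the upper end of its gene, and its centre lies outside the span. The difference by position therefore depends in part on counting this region with the gene spans. The share of lower MMP regions was 75.0% with the flanks and 33.3% when only regions that overlap a span were counted. All 41 ADAMTS regions overlapped gene spans, but these genes are longer, with a median span of 133 kb against 13.2 kb. Flanks are therefore a smaller part of their windows. Over all members 9 regions lay in the flanks, and all 9 were lower.

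Of the 6 members for secreted MMPs that share a stretch of chromosome 9, each under 20 kb, 1 held a region. Among all protein-coding genes under 20 kb the share was 12.5%. Mmp3, Mmp7, Mmp8, Mmp10, Mmp12 and Mmp13, which encode 2 stromelysins, matrilysin, 2 collagenases and the macrophage elastase, lie within 427 kb. The only member region there was at Mmp10, chr9:7509742-7509948, near the far end of the gene, with methylation levels of 0.412 in PDGFRα+ cells and 0.965 in CD137+ cells over 12 cytosines. Over the whole stretch 2 regions were listed, both lower, or 0.464 per 100 kb. The spans of the 6 genes fill 62.5 kb of it, so this density cannot be set beside that of gene windows. The 250-base promoter windows of these genes held 0 to 7 CG, against the median of 10 over protein-coding genes.

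A motif search in the same windows found a short sequence that most of these 6 members share. The AP-1 site, TGAGTCA or its reverse complement TGACTCA, is a known element of MMP promoters. It was present in 5 of the 8 windows of these genes (1 each for Mmp3, Mmp7, Mmp10, Mmp12 and Mmp13), in none of the other 24 member windows and in 4.06% of all protein-coding windows. A match is a string of letters and not a shown binding site. The last 70 bases before the start are given for 3 of these genes, with the match in capitals, to show its place close to the start.
Mmp3, chr9:7445752-7445821, plus strand: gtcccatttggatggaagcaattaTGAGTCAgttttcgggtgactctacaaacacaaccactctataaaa
Mmp10, chr9:7502272-7502341, plus strand: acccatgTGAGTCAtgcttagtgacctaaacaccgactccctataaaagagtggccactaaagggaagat
Mmp13, chr9:7272444-7272513, plus strand: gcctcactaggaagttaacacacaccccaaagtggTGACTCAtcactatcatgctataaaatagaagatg

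The first base of the match lay 46 bases before the start in Mmp3, 63 in Mmp10 and 35 in Mmp13. Each of these windows held 1 CG in its 250 bases. Among the other MMPs, Mmp9, the second gelatinase, and Mmp11, a stromelysin of stromal cells, also held no region. For Mmp9 the nearest region lay just outside the limit, 2036 bases from the gene, with methylation levels of 0.368 in PDGFRα+ cells and 0.889 in CD137+ cells.

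The 3 ADAMTS genes for procollagen N-proteinases, which trim the amino end of fibrillar procollagens, each held a region. All 7 of their regions were lower in PDGFRα+, with median levels of 0.163 and 0.803. Adamts2, the main enzyme of this kind for type I procollagen in skin, had 4 regions. They lie between chr11:50642742-50642860 and chr11:50681873-50682118, in the first part of the 205 kb gene. In chromosome order the Adamts2 levels were 0.0862, 0.159, 0.163 and 0.262 in PDGFRα+ cells and 0.747, 0.803, 0.874 and 0.822 in CD137+ cells. All 4 regions were lower in PDGFRα+, the direction of 77.7% of the listed regions. Adamts3 had 2 regions, with methylation levels of 0.231 and 0.222 in PDGFRα+ cells against 0.839 and 0.777 in CD137+ cells.

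The ADAMTS proteoglycanases cleave aggrecan, versican and related proteoglycans. Of the 7 genes 4 held a region, against 29.5% of all protein-coding genes, without matching for span. These genes span 9.3 to 172 kb, and the share over protein-coding genes rose with span class from 12.5% to 81.4%. Of their 12 regions 10 were lower (83.3%, 95% Wilson interval 55.2 to 95.3), close to the 77.7% of all listed regions. Adamts5, known as the chief aggrecanase of mouse cartilage, had methylation levels of 0.165 and 0.106 in PDGFRα+ cells and 0.856 and 0.778 in CD137+ cells. In Adamts15 the regions chr9:30918885-30919121 and chr9:30919491-30920107 lay 369 bases apart, with levels of 0.164 and 0.170 against 0.677 and 0.882. The second of these held 23 cytosines and had a difference of -0.71. Adamts20 had levels of 0.254 and 0.243 against 0.740 and 0.844. Adamts1, Adamts4 and Adamts8 held none.

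Adamts9, a proteoglycanase gene of 172 kb, was the member of this group with both directions. Going up the chromosome, it had 3 lower regions, 2 higher ones and 1 lower one. The lower regions had levels of 0.0589 to 0.461 in PDGFRα+ and 0.634 to 0.837 in CD137+. The higher ones, chr6:92875940-92876222 and chr6:92882725-92882817, had methylation levels of 0.967 and 0.964 in PDGFRα+ cells against 0.485 and 0.285 in CD137+ cells. The last lower region, with 19 cytosines, began 1020 bases beyond the second higher one, so the direction turned within a short distance. The higher pair and the lower region on each side also lie at Gm15737.

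Among the remaining ADAMTS genes, regions were almost all lower. Adamts16, Adamts17, Adamts18 and Adamts19, whose substrates are less well known, had 18 regions, 17 of them lower. Of all listed regions 77.7% were lower. Adamts18 was lower in 6 of 6, with levels from 0.174 to 0.491 in PDGFRα+ and from 0.730 to 0.973 in CD137+. Every region was lower in 27.2% of the 820 protein-coding genes that held at least 5 regions. Adamts17 was lower in 7 of 8. The widest Adamts17 difference, -0.84 at chr7:67013606-67013965, came from levels of 0.123 and 0.961 over 15 cytosines and stood at rank 45 of 28141 from the most negative. Its higher region, chr7:67112625-67112719, had levels of 0.701 and 0.243. Adamts19 was lower in 3 of 3, with levels of 0.285, 0.291 and 0.169 against 0.818, 0.797 and 0.745. Adamts16 was lower in its only region (0.189 and 0.842), which lies also at Gm36607.

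Adamts7 and Adamts12 encode enzymes that cut cartilage oligomeric matrix protein. Adamts12 had 2 lower regions, with methylation levels of 0.0849 and 0.256 in PDGFRα+ cells against 0.768 and 0.866 in CD137+ cells, on only 5 and 4 cytosines, and Adamts7 had none. Adamts6, which acts on fibrillin-associated matrix and cell-surface proteoglycans, had 2 lower regions of 15 cytosines each (0.212 and 0.273 against 0.826 and 0.814), and the related Adamts10 had none.

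Of the ADAMTS-like genes, Adamtsl1 held more regions than any other member. Only 2 protein-coding genes of the genome had 30 or more, itself included, and its span of 915 kb is long. Per 100 kb it held 3.27 regions, against 1.40 for all protein-coding genes of 100 kb or more. Some members were denser, for example Timp2 (8.57) and Adamts18 (3.84), and others less dense, for example Adamts17 (2.52) and Adamts2 (1.91). Of the 30 regions, 26 were lower, with levels from 0.0506 to 0.467 in PDGFRα+ and from 0.591 to 0.961 in CD137+ and a median difference of -0.57. The 4 higher regions had levels from 0.750 to 0.893 in PDGFRα+ and from 0.293 to 0.428 in CD137+. The longest region of any member, 1517 bases at chr4:86054512-86056028, had levels of 0.0990 and 0.703 over 28 cytosines. It opens a group of 6 regions within 18.8 kb, of which 5 were lower and 1 was higher, the higher one at chr4:86073236-86073300 with levels of 0.886 and 0.344. The widest difference of the gene, -0.73 at chr4:86408296-86408709, came from levels of 0.130 and 0.858.

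The other ADAMTS-like genes were more mixed. Adamtsl3, a matrix protein gene of 279 kb, had 3 lower regions and 2 higher ones. The lower Adamtsl3 regions had methylation levels of 0.185, 0.412 and 0.341 in PDGFRα+ cells and 0.773, 0.881 and 0.862 in CD137+ cells. The higher ones had levels of 0.970 and 0.869 against 0.453 and 0.380, so that its mean difference was only -0.11. Adamtsl5 had 1 region, chr10:80342325-80342555, with 23 cytosines and levels of 0.766 and 0.346. In Adamtsl4 the region inside the gene, chr3:95677528-95677925, was lower as were the 2 upstream ones, with levels of 0.323 and 0.955. Adamtsl2 had no region. Without Adamtsl1, 6 of 9 ADAMTS-like regions (66.7%) were lower, and with it 32 of 39 (82.1%).

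**Figure D5:**
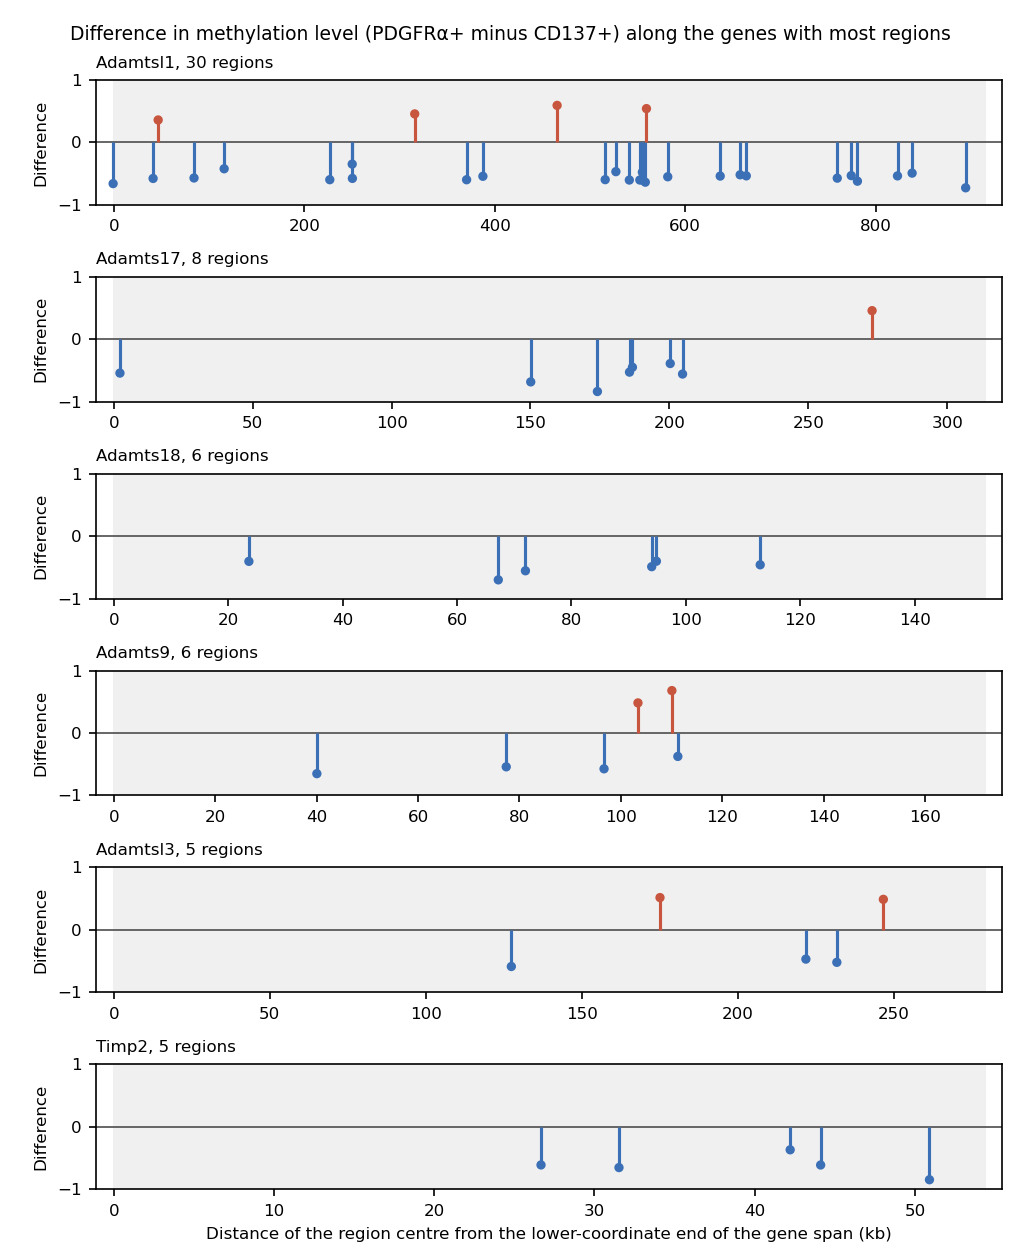
Difference in methylation level, PDGFRα+ minus CD137+ (y axis), at the centre of each region along the 6 members with at least 5 regions (x axis, kb from the lower-coordinate end of the gene span, shaded). Blue marks lower and red marks higher regions, and Adamts18 and Timp2 have blue regions only.

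Of the inhibitors, Timp2, which at the cell surface helps Mmp14 to activate Mmp2 and in excess blocks it, had 5 regions. All 5 were lower in PDGFRα+. Every region was lower in 27.2% of the 820 protein-coding genes that held at least 5 regions. The 5 Timp2 regions lay in the part of the 54.4 kb gene towards its start. Timp2 is on the minus strand, and the region centres lie 3440 to 27686 bases after the start. From the farthest from the start to the nearest, the levels were 0.228, 0.114, 0.536, 0.260 and 0.0921 in PDGFRα+ cells and 0.841, 0.769, 0.906, 0.874 and 0.942 in CD137+ cells. The farthest, chr11:118327139-118328312, is 1174 bases long with 45 cytosines, and its absolute area statistic, the authors' score for a region, stood at rank 204 of 28141. The nearest, chr11:118351569-118352374, had the most negative difference of any member, -0.85 (rank 30 of 28141), but held 4 cytosines in 806 bases. The second and the third in this order lie also at Cep295nl, a gene nested in the Timp2 span.

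Timp3, the inhibitor that stays bound to the matrix, had 1 lower region 1502 bases past its end, chr10:86351007-86351110, with levels of 0.50 and 0.934. This region lies also at Syn3, the gene that surrounds Timp3. On the other side, 4492 and 4743 bases before Timp3 and outside the limit, 2 regions were higher in PDGFRα+ (0.877 and 0.878 against 0.376 and 0.446). Timp4, an inhibitor known from heart and fat, had none, and the nearest region lay 5259 bases away.

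Mmp14, Mmp2 and Timp2 act in 1 activation step, and their regions can be set side by side. Mmp14 was lower in 2 of 2 regions, Timp2 in 5 of 5 and Mmp2 in 0 of 1. Of all listed regions, 77.7% were lower. The PDGFRα+ level was at most 0.116 at Mmp14, at most 0.536 at Timp2 and 0.902 at Mmp2. In the CD137+ library it was at least 0.725 at Mmp14, at least 0.769 at Timp2 and 0.210 at Mmp2. Whether these genes differ from each other was not tested.

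Other genes of matrix proteolysis, namely further MMPs, ADAM proteases, plasminogen activators, procollagen C-proteinases, cathepsins, proprotein convertases and inhibitors, were also mostly lower. Of 46 such genes 25 held a region, against 29.5% of all protein-coding genes, without matching for span. In 16 of the 25 every region was lower, in 3 every region was higher, and 6 were mixed. Among protein-coding genes with a region these shares were 58.5%, 18.5% and 23.0%. Of their 73 regions 61 were lower (83.6%), beside the 77.7% of all listed regions. Adam12, a membrane-bound ADAM gene of mesenchymal cells, was lower in 9 of 9 regions (mean levels 0.257 in PDGFRα+ and 0.851 in CD137+). Spock1, a matrix proteoglycan gene, was also lower in 9 of 9 (0.288 and 0.807). Pcolce2, an enhancer of procollagen C-proteinase, was lower in 4 of 4 (0.229 and 0.848), and Bmp1, that proteinase, in 2 of 2 (0.255 and 0.877). Reck, a membrane-anchored MMP inhibitor, was split, with 3 higher and 2 lower regions. Adam10, Adam15 and Ctss, a lysosomal cathepsin gene of immune cells, were higher in their only regions.

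Regions at markers of other cell types did not all share the direction of the members. Of 11 leukocyte markers 8 held a region, and 19 of their 23 regions were higher in PDGFRα+, 8 of these at Ptprc and 5 at Ikzf1. By gene, 4 leukocyte markers had higher regions only, 2 had lower regions only and 2 had both. Of 6 endothelial markers 6 held one, and 13 of 19 regions were higher, 5 of these at Erg. Regions were held by 4 of 6 mural markers (5 of 5 regions lower) and 3 of 4 mesothelial markers (8 of 9 lower, 5 of them at Wt1). Only 3 of 8 adipose progenitor markers held one, with 13 of 14 regions lower, 6 of these at Dpp4 and 6 at Dcn. Of all listed regions 77.7% were lower and 22.3% higher, and 29.5% of protein-coding genes held a region, without matching for span. Pdgfra was lower in its only region (0.210 in PDGFRα+ and 0.769 in CD137+), and Tnfrsf9, the gene of CD137, held none. The part of cell composition in the values of the protease genes was not tested.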

How the data were processed

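Whole-genome bisulfite data of 1 CD137+ and 1 PDGFRα+ library were used in the form of the authors' deposited table of differentially methylated regions. Per the file headers, each methylation level is deposited as a fraction, and the signed difference (CD140 minus CD137) and the area statistic are deposited as scores. Positions are on mm10, which the submitters' processing notes name. No source used here gives the aligner, the callers, their thresholds or the coverage, and only regions called as different are listed, so read depth is unknown and levels have no interval. The starts were checked against RefSeq promoter sequences. All 249 starts that fall in such a window lie on a cytosine of a CG, on either strand, when counted from 0, and all 237 ends do when counted from 1. Starts are therefore printed counted from 1. All 88 regions inside a window hold at most 2 cytosines per CG.

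Regions were assigned to RefSeq gene spans (GRCm38.p6, the assembly of mm10) plus 2 kb each side. Exons and introns were not used here. The start and strand of 29 members came from the promoter table. Shares carry 95% Wilson intervals. No test between groups was made. The members, roles and lists were chosen with earlier results of these data known. Every member was named, with all regions of MMPs and TIMPs, and ranges or widest differences for members with many regions. The overlap search recovered the planted regions of 200 genes in simulated data, and it differed from a brute-force search in 0 of 300 genes. Alternatives covered the flank, the overlap rule, minimum differences and cytosines, the statistic, merging, weighting by cytosines and leaving out Adamtsl1. The software was pandas 2.3.3 and numpy 2.4.6 under Python 3.11.15, with scipy 1.17.1 for intervals and matplotlib 3.10.9 for plots.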

Additional observations from a re-analysis of the deposited data

How the results depend on the processing

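No paired analysis was possible because each group has 1 library. Under 10 alternatives the number of members with a region stayed between 19 and 28. Under 11, the share of lower regions stayed between 84.8% and 91.5%, inside its counting interval. The number of regions was 46 with at least 10 cytosines and 48 with statistics above the median, against 94. With differences of at least 0.5 the median difference was -0.60, because smaller ones were removed. Without flanks, 33.3% of MMP regions were lower, with the Mmp2 region still counted because it overlaps the gene end. Without Adamtsl1, 66.7% of ADAMTS-like regions were lower. With 10 kb on either side the TIMP share was 80.0%, since the higher regions before Timp3 then count. Of the family shares, that of the ADAMTS genes stayed between 88.9% and 96.8%. Family shares rest on 6 to 41 regions, and 1 library per group and the unknown read depth limit every value.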

Other observations

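The regions at the protease and inhibitor genes were slightly poorer in cytosines than the table as a whole, with a median of 3.90 cytosines per 100 bases against 4.62, and their median length was 244 against 216 bases. Of the 94 regions, 14 also lay at or within 2 kb of another gene, so they cannot be given to the member alone. Among the RefSeq promoter windows, those of members with a region held a median of 18 CG and those of members without one held 7, a set that includes the chromosome 9 genes other than Mmp10. These windows were not themselves listed as different, and the comparison is a description of 32 windows.

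The 2 kb limit left some near neighbours out. The nearest left out lay 2036 bases from Mmp9 and 2093 bases from Adamts14, and both were lower in PDGFRα+ (0.368 against 0.889, and 0.215 against 0.851). The farthest that counted lay 1992 bases from Mmp19.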
